A study of Mus musculus with 10 samples.

Results

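The oligoadenylate synthetase genes Oas1a, Oas1g, Oas2, Oas3, Oasl1 and Oasl2 were followed in tumour neutrophils. They were chosen by symbol, as the rows of the deposited count table whose Ensembl identifier carries one of these names in GENCODE M21. All 6 were found among 55385 mouse gene rows, and all 6 passed the filter on low counts. The neutrophils came from squamous cell carcinomas (SCC) grafted on CatchupIVM-red mice, in which the Ly6g locus drives a red Tomato reporter in neutrophils, and were isolated as Tomato+ cells. The grafted cells were either the parental Sox2low control, which the library names tag with GFP, or Sox2Hi cells. All library names also begin with C57, which the labels do not explain. Tumours were left naive or the mice were treated with anti-PDL1/CD40 agonist once tumours were established, with no dose, time, age or sex in the labels. Control tumours gave 3 naive and 2 treated libraries, and Sox2Hi tumours also gave 3 naive and 2 treated libraries. The question, per the design, is whether high Sox2 in tumour cells dampens interferon responses of neutrophils. No label says whether libraries came from separate mice, so p-values measure only the spread between these libraries.

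Oligoadenylate synthetases are cytosolic sensors of double-stranded RNA. When they bind such RNA they join ATP into short oligoadenylates that act as second messengers of the antiviral response. Type I interferon induces the family through the factor ISGF3, which contains Stat2 and Irf9 and binds the interferon-stimulated response element (ISRE) in promoters. Interferon gamma acts on promoters through the gamma-activated site (GAS). Oas1a and Oas1g are small enzymes of a group duplicated in the mouse, while Oas2 and Oas3 are larger enzymes with repeated synthetase units. Oasl1 and Oasl2 carry ubiquitin-like repeats. Oasl2 keeps synthetase activity, whereas Oasl1 lacks it and is known for holding back translation of Irf7, a factor that amplifies the interferon response.

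In GENCODE M21 (GRCm38, the assembly UCSC calls mm10) the genes lie in 2 clusters on chromosome 5. Oasl2 (ENSMUSG00000029561, plus strand, chr5:114896936-114912234) and Oasl1 (ENSMUSG00000041827, plus strand, chr5:114923240-114937915) form a cluster of 41.0 kb. The other cluster begins 5792.4 kb away, spans 191.3 kb and holds 10 Oas genes. Its members here are Oas2 (ENSMUSG00000032690, minus strand, chr5:120730333-120749853), Oas3 (ENSMUSG00000032661, minus strand, chr5:120753098-120777661), Oas1g (ENSMUSG00000066861, minus strand, chr5:120876142-120887613) and Oas1a (ENSMUSG00000052776, minus strand, chr5:120896256-120907521). All 6 are annotated as protein coding.

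The promoters are shown because interferon acts on the family through promoter elements, and the members differ in which of these their start-proximal windows hold. Each line gives the 250 bases before the RefSeq start site, read along the gene's strand in GRCm38.p6, for the 5 members with an entry. Capitals mark matches, on either strand, to the ISRE core, which is GAAA, any 2 bases, then GAAA again.
Oas1a: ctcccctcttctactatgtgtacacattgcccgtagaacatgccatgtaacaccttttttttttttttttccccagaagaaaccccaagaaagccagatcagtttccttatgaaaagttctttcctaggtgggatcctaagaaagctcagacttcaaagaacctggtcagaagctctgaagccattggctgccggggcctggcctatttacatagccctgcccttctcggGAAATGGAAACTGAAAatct
Oas1g: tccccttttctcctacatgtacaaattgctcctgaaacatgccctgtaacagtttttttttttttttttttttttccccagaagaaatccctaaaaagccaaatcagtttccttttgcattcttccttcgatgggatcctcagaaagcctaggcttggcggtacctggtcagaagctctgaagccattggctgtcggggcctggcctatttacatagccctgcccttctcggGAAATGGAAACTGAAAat
Oas3: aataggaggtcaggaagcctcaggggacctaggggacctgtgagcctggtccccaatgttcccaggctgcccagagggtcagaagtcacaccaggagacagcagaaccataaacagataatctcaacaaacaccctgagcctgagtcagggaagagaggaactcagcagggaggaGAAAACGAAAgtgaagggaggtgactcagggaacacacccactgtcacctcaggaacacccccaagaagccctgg
Oasl1: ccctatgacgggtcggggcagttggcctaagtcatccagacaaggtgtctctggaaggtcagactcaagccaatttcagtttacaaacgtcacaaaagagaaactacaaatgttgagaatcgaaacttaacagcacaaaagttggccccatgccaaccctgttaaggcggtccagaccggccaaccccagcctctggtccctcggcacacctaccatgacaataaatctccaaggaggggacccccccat
Oasl2: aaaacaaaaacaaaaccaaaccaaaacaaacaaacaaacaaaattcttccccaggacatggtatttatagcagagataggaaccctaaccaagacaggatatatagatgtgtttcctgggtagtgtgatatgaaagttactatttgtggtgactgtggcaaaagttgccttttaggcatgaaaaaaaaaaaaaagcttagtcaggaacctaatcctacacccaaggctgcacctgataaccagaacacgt
The windows are chr5:120907526-120907775 for Oas1a, chr5:120887614-120887863 for Oas1g and chr5:120777660-120777909 for Oas3, all on the minus strand. They are chr5:114922990-114923239 for Oasl1 and chr5:114896684-114896933 for Oasl2, both on the plus strand. Oas1a and Oas1g each held 2 overlapping ISRE cores, GAAATGGAAA and GAAACTGAAA, which began at positions -20 and -14 from the start site in Oas1a and at -18 and -12 in Oas1g. Oas3 held 1 core, GAAAACGAAA, at position -75. Oasl1 and Oasl2 held none in this window. The core occurs in 978 of 32851 promoter windows of this length in the RefSeq table (2.98%). The GAS motif TTCNNNGAA, found in 7.02% of windows, occurred only in Oas1a among these 5, as TTCAAAGAA at -98. Oas1a and Oas1g shared 82.8% of aligned promoter positions, against 41.4 to 47.3% for the other 9 pairs.

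The transcripts of Oas1a and Oas1g were also close. Of the 31-base words in the Oas1a transcripts, 68.7% also occurred in Oas1g, and 54.6% of those of Oas1g occurred in Oas1a. The estimated counts of these genes may therefore trade reads, and their separate values are uncertain. The other members shared between 0 and 2.05% of their words with any other gene. Counts were estimated without a stated use of strand, and so reads from overlapping antisense transcripts cannot be told apart.

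Library totals ran from 13815734 to 22986193 counts. All 20 neutrophil identity genes had counts in every group, and together they took 1.7 to 2.65% of counts in naive and 3.69 to 3.79% in treated control tumours, and 1.76 to 2.41% in naive and 2.3 to 2.62% in treated Sox2Hi tumours. The 10 keratinocyte genes took 0.191 to 0.375%, 0.0738 to 0.115%, 0.341 to 0.5% and 0.156 to 0.243% in the same order, and no gene of this list was at 0 in any group. The 12 macrophage and dendritic cell genes took 0.0855 to 0.194% and overlapped between naive and treated libraries of each graft. The 10 T and NK cell genes took 0.00581 to 0.00959% in naive and 0.0106 to 0.037% in treated control tumours. They took 0.00417 to 0.0144% and 0.0156 to 0.0277% in Sox2Hi tumours, so that the sum lay higher with treatment in both grafts. Each list is given as a sum, and single genes can go another way. In control treated replicate 1, Cd8a had 66 and Cd4 29 counts, against 109 to 121 and 47 to 56 in control naive libraries. Nkg7 and Gzma had 844 and 409 counts there, against 237 to 334 and 95 to 108. The 7 fibroblast and endothelial genes lay lower with treatment, at 0.0291 to 0.0814% against 0.0072 to 0.00903% in control and 0.0508 to 0.0754% against 0.01 to 0.0318% in Sox2Hi tumours. So did the 5 erythroid genes, at 0.0628 to 0.166% against 0.00381 to 0.0227% and 0.0308 to 0.0694% against 0.00248 to 0.0054%. The 5 plasma cell genes took 0.0274 to 0.0438% and 0.0366 to 0.0795% in control, and 0.0645 to 0.435% and 0.0466 to 0.0487% in Sox2Hi tumours. The read rate over 1464 olfactory and vomeronasal receptor genes, which neutrophils should not express, was used to estimate a background. In control tumours it came to 6.36% ± 1.77 of all counts without treatment (SD, n = 3) and 1.66% ± 0.113 with it (n = 2). In Sox2Hi tumours it came to 3.76% ± 0.146 (n = 3) and 4.5% ± 0.651 (n = 2). Because control treated libraries stood apart in this way, the comparisons of the 6 members are given under 2 scalings. The all-gene scaling uses TMM factors from 29648 genes and is the main one. The expressed-gene scaling rests on the 11274 genes that average 5 CPM (counts scaled to library size) or more. The part of the marker genes and of the background in the results below was not tested, except where a value with the background subtracted is given. In bulk RNA, fewer cells expressing a gene and less RNA per cell cannot be told apart.

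In naive tumours all 6 members were detected, at levels that spanned a wide range. All CPM values use the all-gene scaling unless said otherwise. In control naive replicates 1, 2 and 3, Oasl2 measured 122, 127 and 110 CPM and Oas1a 45.8, 52.2 and 46.2 CPM. Oas3 measured 13.4, 14.7 and 9.98 CPM, and Oas1g 12.8, 10.8 and 13.2 CPM. Oasl1 measured 5.35, 8.22 and 7.93 CPM, and Oas2 3.7, 6.4 and 3.92 CPM. The 3 libraries kept Oasl2 and Oas1a well above the other members. Per kb of annotated exon, which allows comparison between genes, Oas1a stood highest at 25.5 ± 1.91 CPM per kb (SD, n = 3), followed by Oasl2 at 18.8 ± 1.33. Oas1g measured 5.25 ± 0.563, Oasl1 2.75 ± 0.607, Oas3 1.79 ± 0.343 and Oas2 1.05 ± 0.337 CPM per kb. The standard deviations of neighbours from Oasl1 downward nearly met, and these neighbours were not tested against each other. The lead depended on the length used. Per kb of the longest transcript, Oasl2 averaged 38.3 CPM per kb and Oas1a 25.5. In control naive libraries 37% of Oas2 reads (32 to 42.6%) equalled the expected background, as did 21.2% of Oas3 and 14.1% of Oasl1 reads. The background share was 7.38% for Oas1g, 2% for Oasl2 and 1.48% for Oas1a. The low levels of Oas2 and Oas3 are therefore the least certain.

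**Figure D1:**
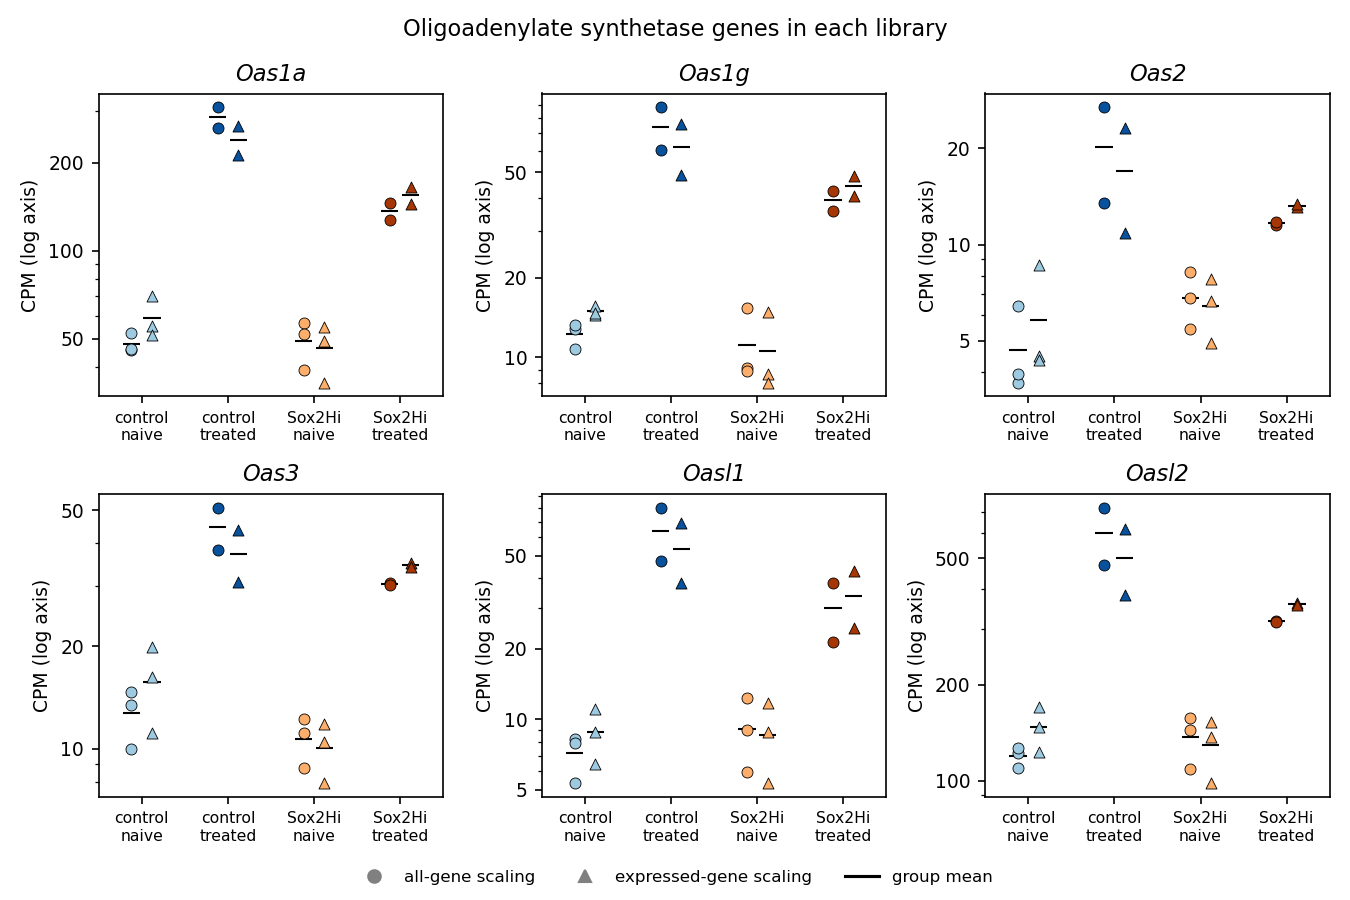
CPM of each gene in each library on a log axis, with circles for the all-gene scaling, triangles for the expressed-gene scaling and bars for group means. In every panel the treated libraries lie above the naive libraries of the same graft, as with Oas1a at 263 and 309 CPM in control treated against at most 52.2 CPM in control naive.

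Treatment of control tumours raised all 6 members, between 3.51-fold for Oas3 and 8.9-fold for Oasl1 under the all-gene scaling. In control treated replicates 1 and 2, Oas1a measured 309 and 263 CPM and Oas1g 87.9 and 60.5 CPM. Oas2 measured 26.9 and 13.5 CPM, and Oas3 50.8 and 38.2 CPM. Oasl1 measured 80.2 and 47.6 CPM, and Oasl2 720 and 477 CPM. Replicate 1 was the higher of the pair for every member, and each gene lay above all 3 naive libraries. Such separation in the upward direction was seen for 23.7% of genes tested. By edgeR's quasi-likelihood test with Benjamini-Hochberg adjustment over all genes, all 6 members were called higher, where 18.7% of genes tested were. Of the 1509 genes averaging 100 CPM or more, Oas1a and Oasl2 among them, 70.5% were. Oas1a, the most abundant small synthetase per kb, rose by a log2 fold change of 2.57 ± 0.19 (SE, adjusted p = 7.7e-06 by edgeR). Its neighbour Oas1g rose by 2.59 ± 0.26 (edgeR adjusted p = 2.9e-05). With all 8 Oas1 rows, Oas1a to Oas1h, summed before the fit, the rise was 2.42. The multi-unit enzymes rose by 2.11 ± 0.31 for Oas2 (edgeR adjusted p = 0.0004) and 1.81 ± 0.22 for Oas3 (edgeR adjusted p = 9.1e-05). Oasl1, the member without synthetase activity, had the largest log2 fold change of the 6 at 3.15 ± 0.35 (edgeR adjusted p = 5.6e-05). Its 95% interval, 2.38 to 3.92, overlapped those of all other members except Oas3, whose interval ran from 1.33 to 2.29. Oasl2 rose by 2.32 ± 0.21 (edgeR adjusted p = 1.7e-05).

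Under the expressed-gene scaling the same 6 were called higher, where 24.1% of genes tested were, with smaller folds. The log2 fold changes there were 2.02 for Oas1a, 2.06 for Oas1g, 1.55 for Oas2, 1.25 for Oas3, 2.61 for Oasl1 and 1.77 for Oasl2. The median of the 6 was 2.45 under the all-gene scaling, beside -0.30 for all genes tested, and 1.89 under the expressed-gene scaling, beside -0.18. The count stayed at 6 with any 1 of the 10 libraries left out, under either scaling. These libraries also differed in neutrophil identity, keratinocyte, T and NK cell, fibroblast and erythroid genes and in background, in the ranges given above. With the background subtracted the log2 fold changes ran from 1.51 for Oas3 to 2.78 for Oasl1. Over all settings tried the smallest rise was 0.74, for Oas3 with library totals alone, and it still passed (edgeR adjusted p = 0.019).

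Treatment of Sox2Hi tumours raised 5 of the 6 members, by 2.31-fold to 3.51-fold. In Sox2Hi naive replicates 1, 2 and 3, Oas1a measured 56.5, 52 and 39.3 CPM, and in Sox2Hi treated replicates 1 and 2 it measured 127 and 146 CPM. Oas1g went from 15.4, 9.13 and 8.9 CPM to 35.7 and 42.6 CPM. Oas2 measured 6.82, 8.2 and 5.43 CPM in naive and 11.5 and 11.8 CPM in treated libraries. No treated library overlapped a naive one for these 3 genes. Oas3 went from 12.2, 11.1 and 8.79 CPM to 30.6 and 30.2 CPM. Oasl1 went from 9.05, 12.3 and 5.94 CPM to 21.5 and 38.2 CPM, the widest treated pair in relative terms. Oasl2 went from 158, 144 and 109 CPM to 318 and 315 CPM. Sox2Hi naive replicate 3 was the lowest naive library for all 6 members, and the 6 genes were separated between the groups, as were 22.0% of genes tested in this direction. By summed share, keratinocyte, fibroblast and endothelial, erythroid and plasma cell genes lay lower in these treated libraries than in the naive ones. The sum of T and NK cell genes and the background (4.04 to 4.96% against 3.63 to 3.92%) lay higher, all without overlap.

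By the edgeR test, 5 members were called higher in Sox2Hi tumours, where 1.79% of genes tested and 9.94% of those averaging 100 CPM or more were. Oas1g rose by a log2 fold change of 1.81 ± 0.26 (SE, edgeR adjusted p = 0.0049), Oasl1 by 1.71 ± 0.34 (edgeR adjusted p = 0.025) and Oas3 by 1.51 ± 0.22 (edgeR adjusted p = 0.0052). Oas1a rose by 1.47 ± 0.19 (edgeR adjusted p = 0.0026), and Oasl2 by 1.21 ± 0.21 (edgeR adjusted p = 0.014). Oas2 did not pass, at 0.77 ± 0.31 (95% interval 0.09 to 1.46, edgeR adjusted p = 0.18). The same 5 were called under the expressed-gene scaling, where 15.0% of genes tested were, with Oas2 at 1.04 (edgeR adjusted p = 0.061). The median of the 6 was 1.49 beside 0.07 for all genes tested, and 1.75 beside 0.09 under the expressed-gene scaling. Under the all-gene scaling, 1 member (Oas1a) remained called without Sox2Hi treated replicate 2, where 0.239% of genes tested were called higher, and 3 without Sox2Hi naive replicate 3, where 0.448% were. The count was 4 without Sox2Hi naive replicate 1 (1.02%) or Sox2Hi treated replicate 1 (1.08%). With the expressed-gene scaling 3 were called without Sox2Hi treated replicate 2 (1.56%), and all 6, Oas2 included, without control naive replicate 2 (16.4%) or without either control treated library (11.9% each).

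**Figure D2:**
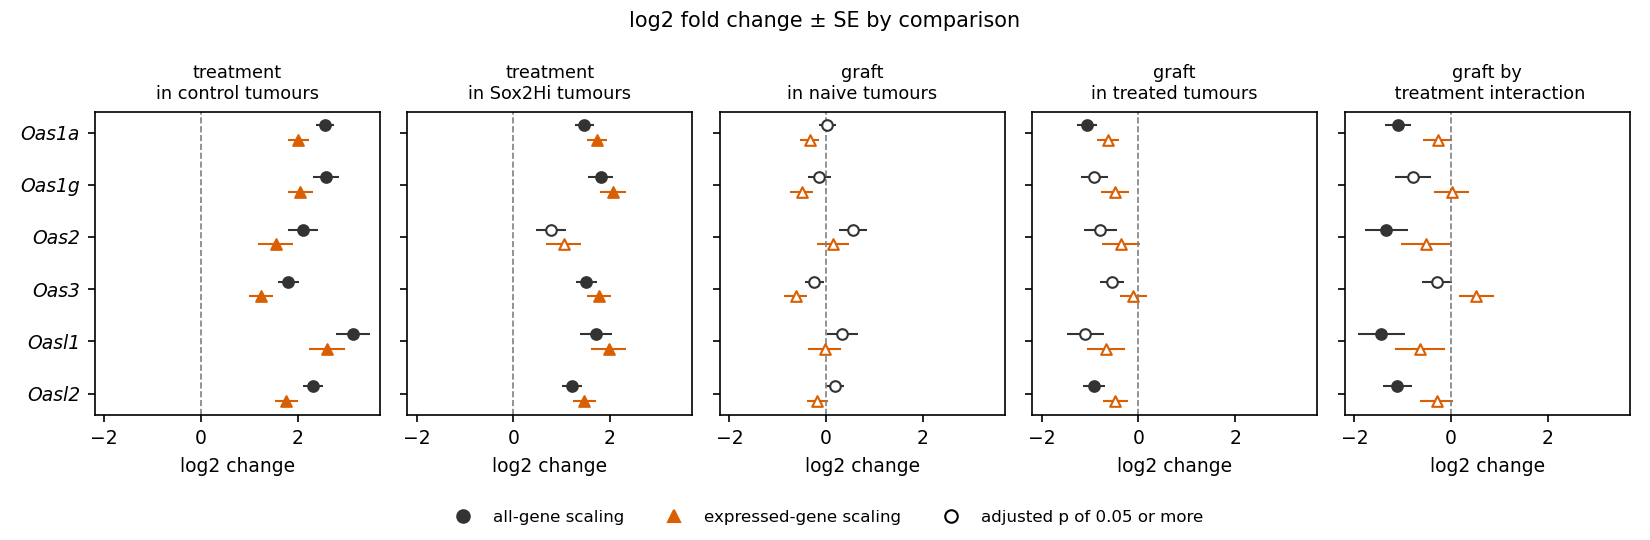
Log2 fold change with its standard error for each gene in each comparison, with circles for the all-gene and triangles for the expressed-gene scaling and open symbols where the adjusted p was 0.05 or more. The treatment panels lie to the right of 0 in both grafts, while the interaction values move from -1.44 to -0.64 for Oasl1 and from -0.30 to 0.52 for Oas3 between scalings.

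In naive tumours the graft made no difference that passed the test for any member. By edgeR, 0 of 6 were called in either direction, where 1.66% of genes tested were called higher and 0.209% lower, and 0 had an unadjusted p under 0.05. DESeq2 also called 0, where it called 22.6% of genes tested higher and 2.33% lower. The log2 differences, Sox2Hi minus control, were 0.03 for Oas1a (95% interval -0.34 to 0.41), -0.14 for Oas1g (-0.66 to 0.38) and 0.55 for Oas2 (-0.09 to 1.18). They were -0.24 for Oas3 (-0.68 to 0.19), 0.34 for Oasl1 (-0.35 to 1.04) and 0.19 for Oasl2 (-0.22 to 0.61). The naive libraries of the grafts overlapped for all 6 members, whereas 17.3% of genes tested were separated upward and 17.4% downward. The naive groups were separated in the summed shares of macrophage and dendritic cell genes and of plasma cell genes (both higher with Sox2Hi). They were also separated in background (5.02 to 8.37% in control, 3.63 to 3.92% in Sox2Hi). Differences of about these interval limits could not be resolved at this sample size. Under the expressed-gene scaling, with 2.10% of genes tested called higher and 11.9% lower, none of the 6 was called either, 1 (Oas3) had an unadjusted p under 0.05, and 5 of 6 estimates were below 0. Oas3 was then lowest, at -0.63 (95% interval -1.15 to -0.12, edgeR adjusted p = 0.1). A few settings changed this count of 0. The replicate numbers were taken to pair the naive libraries, on a weak check described below. With them as a block in the expressed-gene scaling Oas3 was called lower in Sox2Hi. Its difference was -0.55 with the naive libraries alone (edgeR adjusted p = 0.036, with 14.3% of genes tested called lower). It was -0.62 with all libraries (edgeR adjusted p = 0.030, with 13.9% called lower). Under the same scaling Oas3 was called lower without control naive replicate 3 (-0.83, edgeR adjusted p = 0.024, with 14.2% of genes tested called lower), and Oas1g without Sox2Hi naive replicate 1 (-0.84, edgeR adjusted p = 0.047, with 6% called lower). By limma-voom with quality weights Oas2 was called higher, at 0.80 (limma adjusted p = 0.035), where 11.8% of genes tested were.

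In treated tumours every member had a lower level with the Sox2Hi graft, and 2 of the 6 passed the test under the all-gene scaling. Oas1a was at 0.477 of its control treated level (log2 -1.07 ± 0.21 SE, edgeR adjusted p = 0.011) and Oasl2 at 0.529 (-0.92 ± 0.23, edgeR adjusted p = 0.027). Lower calls were made for 9.57% of genes tested and for 58.1% of those averaging 100 CPM or more, to which Oas1a and Oasl2 belong. The other members had log2 differences of -0.92 for Oas1g (edgeR adjusted p = 0.051), -1.10 for Oasl1 (0.074), -0.79 for Oas2 (0.13) and -0.55 for Oas3 (0.14). For all 6, both Sox2Hi treated libraries lay below both control treated libraries, as did 27.3% of genes tested. The treated groups were also separated in the summed share of neutrophil identity genes, lower with Sox2Hi. The summed shares of keratinocyte and of fibroblast and endothelial genes, and the background (4.04 to 4.96% against 1.58 to 1.74%), were higher with Sox2Hi. Within the keratinocyte list Krt8, Krt18, Epcam and Cdh1 lay higher, as with Krt18 at 751 and 685 against 364 and 391 CPM. Krt5, Krt14, Krt17, Krt6a, Trp63 and Itga6 overlapped, as with Krt14 at 291 and 172 against 504 and 228 CPM. The 2 calls were lost under the expressed-gene scaling, where 5.87% of genes tested were called lower, the members ran from -0.67 for Oasl1 to -0.11 for Oas3, 1 of 6 had an unadjusted p under 0.05, and 3 of 6 were still separated beside 26.3% of genes tested. Oas1a alone was called there with the replicate block by title number (-0.63, edgeR adjusted p = 0.034), where 9.83% of genes tested were called lower.

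The count in treated tumours moved in both directions with the method. DESeq2 called all 6 lower, where it called 23.5% of genes tested lower, between -0.71 for Oas3 (DESeq2 adjusted p = 0.021) and -1.27 for Oasl1 (DESeq2 adjusted p = 0.0083). No member was called under the all-gene scaling without Sox2Hi treated replicate 1, where 0.108% of genes tested were called lower. The count was 1 without Sox2Hi treated replicate 2 (3.93%) or control treated replicate 1 (5.8%), and 3 without control naive replicate 2 (12.6%) or Sox2Hi naive replicate 1 (7.92%). The share of all genes called thus moved with these settings as well.

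The response to treatment was smaller in Sox2Hi than in control tumours for 4 of the 6 members by the interaction term under the all-gene scaling, where 16.2% of genes tested and 73.4% of those averaging 100 CPM or more were called in that direction. Oasl1 had an interaction of -1.44 ± 0.49 on the log2 scale (SE, edgeR adjusted p = 0.049) and Oas2 one of -1.34 ± 0.45 (edgeR adjusted p = 0.045). Oasl2 had one of -1.11 ± 0.30 (edgeR adjusted p = 0.021), and Oas1a one of -1.10 ± 0.27 (edgeR adjusted p = 0.014). Oas1g, at -0.78 ± 0.37 (edgeR adjusted p = 0.12), and Oas3, at -0.30 ± 0.31 (edgeR adjusted p = 0.47), did not pass. All 8 Oas1 rows summed gave -0.98 (edgeR adjusted p = 0.021).

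None of these interactions passed under the expressed-gene scaling, 0 of 6 had an unadjusted p under 0.05 there, and 2.84% of genes tested were called in that direction. The values were -0.28 for Oas1a, 0.01 for Oas1g, -0.52 for Oas2, 0.52 for Oas3, -0.64 for Oasl1 and -0.30 for Oasl2, so that Oas1g and Oas3 also changed sign. The median of the 6 moved from -1.11 to -0.29. That of all genes tested moved from 0.22 to 0.02, and that of the 1509 genes averaging 100 CPM or more moved from -1.20 to -0.38. The count was also 0 with library totals alone, where 1.05% of genes tested were called in that direction, and with background subtracted, where 0.998% were. Under the all-gene scaling it was 0 without Sox2Hi treated replicate 1 (8.46%), 1 without control treated replicate 1 (12.9%) and 3 without control naive replicate 2 (14.9%). It was 2 without control naive replicate 1 or 3 (12.1% and 19.1%), Sox2Hi naive replicate 1 or 2 (14.3% and 12.7%), or Sox2Hi treated replicate 2 (10%).

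**Figure D3:**
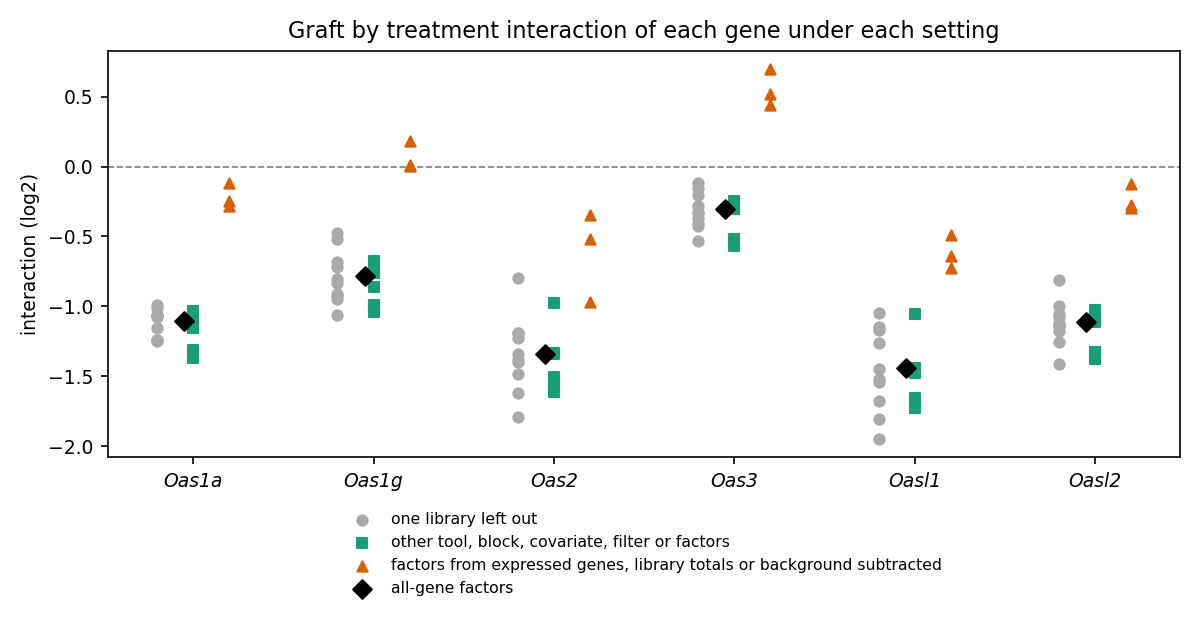
Graft by treatment interaction of each gene on the log2 scale, where each point is a way of fitting the data: black diamonds for the all-gene scaling, grey circles for 1 library left out, green squares for other tools, blocks, covariates, filters or factors, and orange triangles for the expressed-gene scaling, library totals or background subtraction. The orange triangles lie above the other points for every gene except Oas2, where the groups meet, and lie on or above 0 for Oas1g and Oas3.

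The make-up of the family is free of library scaling, since any factor cancels within a library. By summed CPM per kb of exon, Oas1a took 46.2% ± 0.979 (SD, n = 3) without and 49% ± 4.63 (n = 2) with treatment in control tumours, and 44.4% ± 0.394 (n = 3) without and 46% ± 0.624 (n = 2) with it in Sox2Hi tumours. Oasl2 took 34.1%, 29.8%, 36.5% and 31.7% in the same order, and its treated libraries lay below the naive ones in both grafts (28 to 31.5% against 32.8 to 35.7% in control, and 29.7 to 33.8% against 36.3 to 36.8% in Sox2Hi tumours). Oasl1 took 4.98%, 7.71%, 5.87% and 7.18%, with control treated libraries (6.83 and 8.58%) above all control naive ones (3.81 to 5.76%) and overlap in the Sox2Hi graft. Oas1g took 8.04 to 10.6%, Oas3 2.02 to 3.24% and Oas2 1.41 to 2.61% as group means. Other shares were separated as well. In control tumours Oas3 took 2 to 2.03% in treated against 2.67 to 3.53% in naive libraries. In Sox2Hi tumours Oas1a (45.6 to 46.5% against 44.1 to 44.8%) and Oas1g (10.3 to 10.9% against 6.27 to 9.66%) lay higher when treated. Oas2 lay lower there (1.59 to 1.75% against 2.26 to 2.96%). Each of these genes overlapped in the other graft. The order of the group means was Oas1a, Oasl2, Oas1g, Oasl1, Oas3, Oas2 in every group except Sox2Hi naive, where Oas2 and Oas3 were level at 2.61% and 2.58%. This order holds per kb of exon. Per kb of the longest transcript Oasl2 stood above Oas1a in all 4 groups, at 38.3 against 25.5 CPM per kb in control naive, 192 against 152 in control treated, 43.8 against 26.1 in Sox2Hi naive and 101 against 72.4 in Sox2Hi treated tumours.

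**Figure D4:**
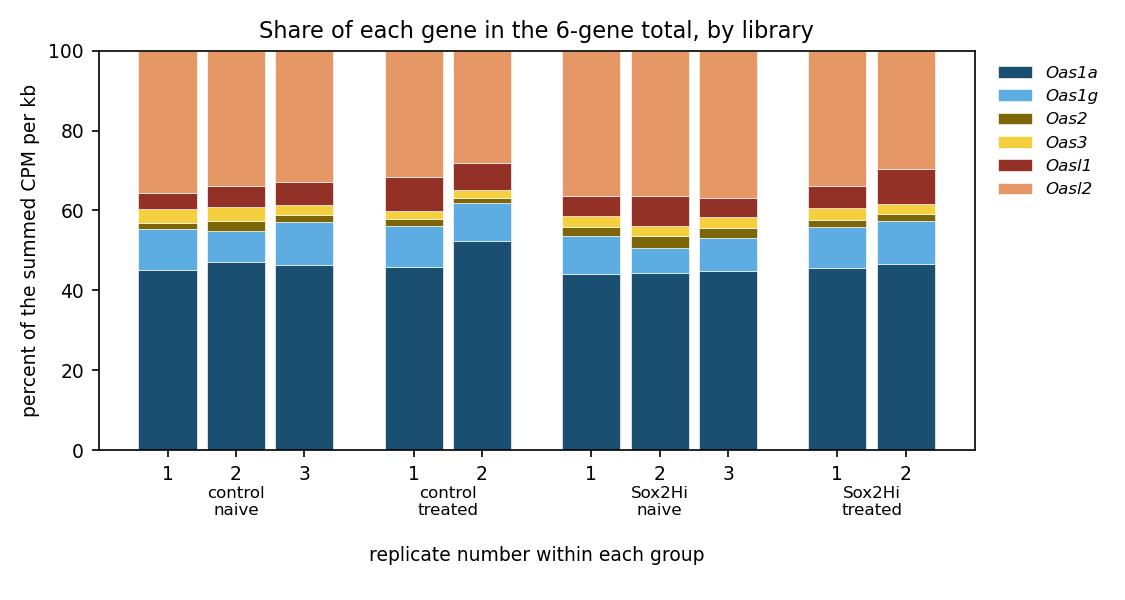
Share of each gene in the summed CPM per kb of the 6 genes, with 1 bar per library that adds to 100%. Oas1a and Oasl2 fill most of every bar, and the Oasl2 segment is smaller in treated than in naive libraries of the same graft.

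Of the 15 ratios between members, 10 in control and 9 in Sox2Hi tumours had both treated libraries outside the naive range of the same graft. Of 29648 single genes tested under the all-gene scaling, 7033 were separated upward and 10330 downward in control tumours. In Sox2Hi tumours 6511 were separated upward and 6459 downward. Such separation in either direction is thus frequent with 2 against 3 libraries. In both grafts the ratios of Oas1a to Oasl2 and of Oas1g to Oasl2 lay higher with treatment, and that of Oas2 to Oasl1 lower. Another 5 ratios are given here as a description, and they do not stand for all 15. The log2 ratio of Oas3 to Oasl1 was 0.83 ± 0.50 (SD, n = 3) in control naive and -0.49 ± 0.24 (n = 2) in control treated libraries, without overlap. It was 0.28 ± 0.38 in Sox2Hi naive and 0.09 ± 0.60 in Sox2Hi treated libraries, which overlapped. The log2 ratio of Oas3 to Oasl2 fell outside its naive range in both treated groups but on opposite sides, from -3.26 ± 0.19 to -3.73 ± 0.13 in control and from -3.67 ± 0.04 to -3.38 ± 0.01 in Sox2Hi tumours. The log2 ratio of Oas3 to Oas2 went from 0.66 ± 0.20 to 1.39 ± 0.05 in Sox2Hi tumours without overlap, and overlapped in control tumours at 1.47 ± 0.35 and 1.21 ± 0.41. That of Oasl1 to Oasl2 went from -4.09 ± 0.38 to -3.25 ± 0.11 in control tumours without overlap, and overlapped in Sox2Hi tumours at -3.96 ± 0.36 and -3.47 ± 0.59. These ratios were not tested. The log2 ratio of Oas1a to Oas1g, which may share reads, was 1.97 in both control groups. It was 2.18 ± 0.32 in naive and 1.80 ± 0.04 in treated Sox2Hi tumours, without overlap. The expected background took a larger part of Oas3 reads in naive than in treated libraries, 21.2% against 3.37% in control and 18.1% against 7.82% in Sox2Hi tumours. The same held for Oas2, at 37% against 5.13% and 18% against 12.9%. For Oasl1 the shares were 14.1% against 0.908% and 8.42% against 3.2%.

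Of 8 further genes counted as a list, the other 6 Oas1 genes with Abce1 and Pde12, 2 rose with treatment in control tumours (Oas1b and Oas1c), and none fell under the all-gene scaling, where 18.7% of genes tested were called higher and 15.3% lower. In Sox2Hi tumours none rose, and Abce1, a ribosome recycling factor, fell by 1.17 on the log2 scale (edgeR adjusted p = 0.034), where 1.82% of genes tested were called lower. The other 6 Oas1 genes were too low to be tested under the expressed-gene scaling. Abce1 fell there in both grafts, by 0.70 in control (edgeR adjusted p = 0.015, with 33.1% of genes tested called lower) and by 0.89 in Sox2Hi tumours (edgeR adjusted p = 0.016, with 6.57% called lower). Pde12, a phosphodiesterase that degrades oligoadenylates, was not called in either graft. The other Oas1 genes of the large cluster had few counts. Oas1e, Oas1f and Oas1h, which lie between called members, and Oas1d, beyond Oas1a, had 3 to 33 counts per library, 0.152 to 1.84 CPM, and none was called. Oas1b, annotated as a polymorphic pseudogene and known for flavivirus resistance, rose in control tumours by 1.43 ± 0.24 (edgeR adjusted p = 0.0010) from 3.62 to 9.78 CPM. Its divergent neighbour Oas1c rose there by 1.39 ± 0.24 (edgeR adjusted p = 0.0011) from 2.16 to 5.7 CPM. In control naive libraries Oas1c had 36 to 51 counts over 2.405 kb of exon, and Oas1b 59 to 90 over 1.992 kb. The background there was 6.56 to 8.85 counts per kb. Oas1c shared 20.7% of its 31-base words with other genes, and Oas1b 6.7%. The changes of both genes are therefore less certain than those of the abundant members. In Sox2Hi tumours the log2 differences were 0.85 for Oas1b (edgeR adjusted p = 0.079) and -0.01 for Oas1c (edgeR adjusted p = 0.98). The Oas1c window (chr5:120812515-120812764, minus strand) also held 2 ISRE cores, at -114 and -108, on the opposite strand. It runs over the left end of Oas1b (chr5:120812635-120824163, plus strand). The cores lie between the starts of these genes, nearer to that of Oas1b and on the strand of Oas1b. Which gene they act on was not tested.

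**Figure D5:**
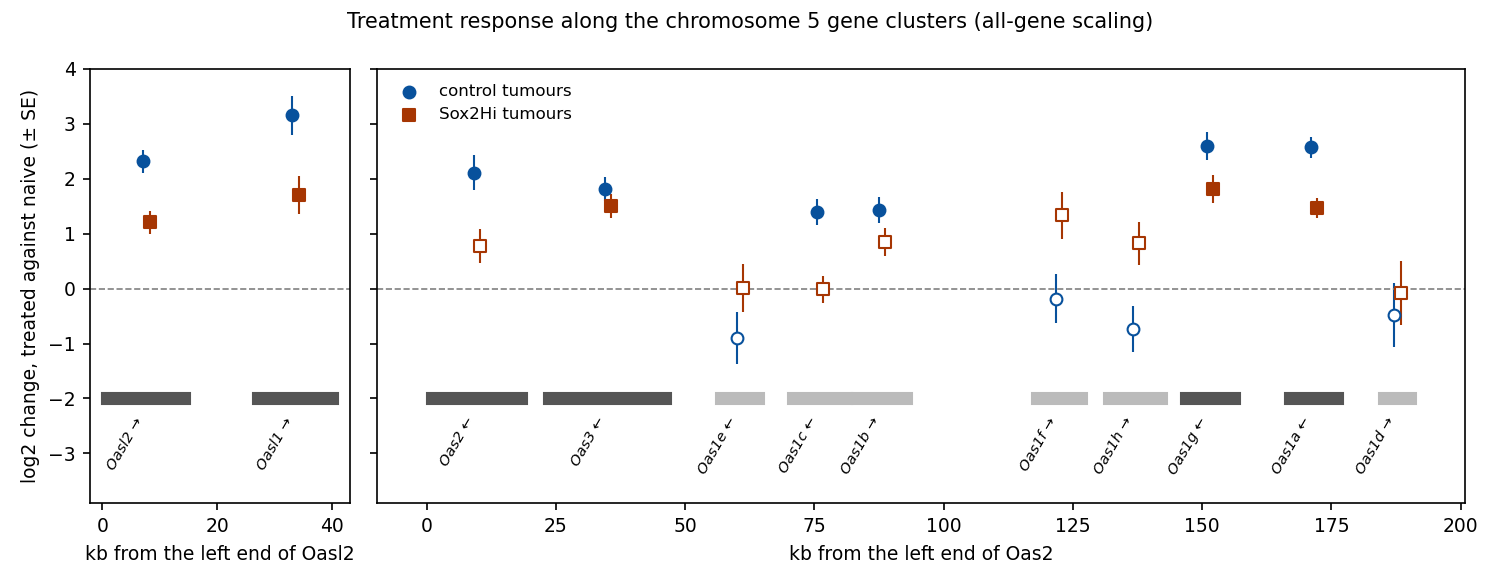
Log2 change with treatment (± SE) along the Oasl and Oas clusters, with blue circles for control and brown squares for Sox2Hi tumours, open symbols where the adjusted p was 0.05 or more, and gene bodies as bars with arrows for strand (dark for the 6 genes followed here). The called genes at both ends of the large cluster flank the low-count genes Oas1e, Oas1f and Oas1h, none of which passed the test, nor did Oas1d beyond Oas1a.

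A list of 11 other antiviral RNA genes holds sensors of double-stranded RNA and their partners, such as Ifih1, Ddx58 and Eif2ak2, with RNA-degrading or RNA-binding effectors such as Isg20 and Zc3hav1. In control tumours 7 of 11 rose and none fell, where 18.7% of genes tested were called higher, with a median log2 fold change of 1.65 beside -0.30 for all genes tested. Those called were Adar, Ifih1, Ddx58, Dhx58, Zbp1, Isg20 and Zc3hav1. Eif2ak2, the kinase PKR that double-stranded RNA activates, had a log2 difference of 0.41 (edgeR adjusted p = 0.070), and -0.16 under the expressed-gene scaling (edgeR adjusted p = 0.47). In Sox2Hi tumours 4 of 11 rose (Ifih1, Ddx58, Zbp1 and Isg20), where 1.79% of genes tested did, with a median of 0.38 beside 0.07. Under the expressed-gene scaling 7 of 10 tested rose and 1, Tlr3, fell in control tumours (median 1.12 beside -0.18, with 24.1% of genes tested called higher and 33.1% lower), and 6 of 10 rose in Sox2Hi tumours (median 0.85 beside 0.09, with 15.0% called higher). Of 9 genes that carry the interferon signal to Oas promoters, Ifnb1 was too low to be tested. In control tumours 7 of the other 8 rose (median 1.66), all but Tyk2, and in Sox2Hi tumours 2 rose (Irf1 and Irf7, median 0.49), beside the same shares and medians of all genes. Under the expressed-gene scaling 7 of 8 rose in control (median 1.10) and 6 of 8 in Sox2Hi tumours (median 0.76).

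The genes whose profile was most like each member were found by the standard deviation, over the 10 libraries, of the log2 ratio of gene to member, which library scaling hardly affects. The closest to Oas1a were Parp14 (0.121), Casp4 and Mpeg1, and the closest to Oas3 were Dtx3l (0.171), Slfn5 and a gene with only a clone name. For Oasl2 they were Cers6 (0.137), Slc28a2 and Lsp1, for Oas2 Trafd1 (0.150), Fgr and Gsdmd, and for Oas1g Gda (0.234), Oas1a and Lcn2. Oasl1 had the loosest matches, Igtp (0.263), Smpdl3b and Ube2l6. The median over about 7100 candidate genes ran from 0.789 for Oas2 to 1.25 for Oasl1. Within the family the tightest pair was Oas1a with Oasl2 (0.193), followed by Oas3 with Oasl2 (0.236) and Oas1a with Oas1g (0.237), and the loosest was Oas1g with Oas2 (0.626).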

How the data were processed

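RNA was extracted with a Zymo microprep kit and sequenced from 10 low-input NEBNext libraries, per the labels' protocols. The authors deposited 1 table of estimated counts per gene. The submitters' processing notes list kallisto 0.44.0 and mm10 with no role, and annotation and strand settings are not given in the sources used here. The values are whole numbers, and the 4 with 7 digits end in 0. All 10 columns matched a library by its description.

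The 92 spike-in and 4 transgene rows (at most 0.00277% of a library's counts) were left out. Symbols came from GENCODE M21, which matched 55144 identifiers. The 4 groups entered 1 edgeR 4.0.16 quasi-likelihood model (R 4.3.3, filterByExpr, TMM factors), with Benjamini-Hochberg adjusted p under 0.05 as a call over 29648 genes. Standard errors were the log2 fold change over the square root of F. The 5 contrasts share libraries. DESeq2 1.42.0 and limma 3.58.1 were alternatives. The members and gene lists were chosen with earlier results of these data known, and 2 genes of these lists are not reported here. Genes named outside the lists are the 3 of most like profile per member, with a mean of at least 10 CPM and a pseudocount of 0.5 CPM. Genes without a symbol, or with a name of the Gm or Rik kind, were left out. The background was the median count per kb over 1464 silent genes times exon length.

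Replicate numbers were checked by correlating deviations from group means. The 3 naive pairs gave 0.35, 0.35 and 0.41, which was taken as a pairing of the naive libraries. The pairing rests on this check alone, as the meaning of the numbers is not in the labels. With 3 libraries per group some matching must come out best, so the check is weak. Chi-square per degree of freedom was at least 12.5 between replicates, more than resequencing of 1 library gives. This check cannot tell repeat libraries of 1 sample apart from separate samples, and the name of control treated replicate 1 ends in r2.2, which the labels do not explain. Promoters came from RefSeq (GRCm38.p6). Of the 6 members 5 had an entry, and Oas2 had none.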

Additional observations from a re-analysis of the deposited data

Results flagged for a closer look

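The response to treatment differed between the grafts for 4 genes by the interaction term under the all-gene scaling. The log2 interactions were -1.10 for Oas1a, -1.34 for Oas2, -1.44 for Oasl1 and -1.11 for Oasl2, each negative where the rise was smaller in Sox2Hi tumours. None of the 4 passed under the expressed-gene scaling, where the adjusted p-values by edgeR ran from 0.45 for Oasl1 to 0.60 for Oasl2. No group had the 4 or more libraries that a check for a single distant library needs.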

How the results depend on the processing

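The count of called members was 6 for treatment in control tumours and 5 to 6 for treatment in Sox2Hi tumours under every setting that kept all libraries and all rows. With the 8 Oas1 rows summed it was 5 of 5 and 4 of 5 under both scalings. With 1 library left out the counts ran from 6 to 6 and from 1 to 5 for these comparisons, from 0 to 0 for the graft in naive tumours, from 0 to 3 for the graft in treated tumours and from 0 to 4 for the interaction. Under the expressed-gene scaling they ran from 6 to 6, 3 to 6, 0 to 1, 0 to 0 and 0 to 0. For the graft in treated tumours, where 2 were called, the count was 0 under the expressed-gene scaling (5.87% of all genes called lower), with library totals (1.03%), with only the groups compared (0 genes) and with background subtracted (0.872%), 4 with RLE factors (13.9%) and 6 by DESeq2 (23.5%). For the interaction, with 4 called, it was 0 under the expressed-gene scaling, library totals and background subtraction. In naive tumours limma-voom called 1. The cause was not tested.

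The remaining alternatives were chosen after seeing the data. So were the fits above under the expressed-gene scaling with 1 library left out or with the Oas1 rows summed. With the expressed-gene scaling, adding the background subtraction or the summed Oas1 rows gave 0 for the graft in treated tumours and for the interaction. Adding the replicate block by title number gave 1 for the graft in naive tumours, 1 in treated tumours and 0 for the interaction, and with the naive libraries alone 1. The block changed no other call of a member count by over 1.5 times. The treated libraries with the same number gave a correlation of -0.207, and with crossed numbers as a replicate block, treated libraries alone, 0 members and 5 genes in all were called.

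Directions that turned were in naive tumours Oas1a (-0.34 expressed-gene, -0.22 library totals, -0.05 only the groups compared, -0.06 naive libraries with the block, -0.36 background subtracted, and -0.08 to 0.17 with 1 library left out), Oasl1 (-0.03 expressed-gene) and Oasl2 (-0.18, -0.06 and -0.20 under the expressed-gene scaling, library totals and background subtraction). In treated tumours Oas3 turned to 0.19 with library totals. For the interaction under the same 3 settings Oas1g turned to 0.01, 0.18 and 0.00, and Oas3 to 0.52, 0.70 and 0.44. Depth limits the low members most, with 74 to 123 counts of Oas2 in control naive libraries, and 2 libraries in each treated group limit every comparison that uses them.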
